A study of Mus musculus with 6 samples.

Results

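The Lef1/Tcf family and beta-catenin, the transcription factors and the co-activator at the end of canonical Wnt signalling, were followed in epidermis that carries a Lef1 transgene. The members are the 5 genes Lef1, Tcf7, Tcf7l1, Tcf7l2 and Ctnnb1, chosen by name, out of 11272 genes measured. They were read by 67 of 114330 probe sets, the short stretches of a transcript that an exon array measures separately: 13 for Lef1, 11 for Tcf7, 12 for Tcf7l1, 14 for Tcf7l2 and 17 for Ctnnb1. The 12 Tcf7l1 probe sets carry the older symbol Tcf3 in the platform annotation. That annotation lists 14 probe sets under Tcfe2a, the older symbol of the E protein gene now called Tcf3, so its Tcf3 was read as Tcf7l1.

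RNA came from unfractionated keratinocytes of the back-skin epidermis of female mice aged 9.5 weeks, on a mixed C57BL6/CBA background. The groups are 3 wild type samples and 3 samples with the K14ΔNLef1 transgene, with 1 array each. This transgene is a Lef1 that lacks its N-terminal part, placed under the keratin 14 promoter, which is active in basal keratinocytes. The labels call the 3 samples of a genotype biological replicates and name no pairs, founder lines or pools. The extraction protocol mentions cell sorting, while these samples are labelled as unfractionated. The comparison asks how the transgene changes expression in the epidermis, here of its own gene family and of beta-catenin.

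In the absence of a Wnt signal a destruction complex around Axin and Apc marks beta-catenin for degradation, and Lef1/Tcf proteins on DNA recruit Groucho-type co-repressors. When the signal arrives, beta-catenin is stabilised, enters the nucleus and binds the N-terminal end of Lef1/Tcf proteins, which turns their targets on. A Lef1 without this N-terminal part still binds DNA through its HMG box but cannot bind beta-catenin, and acts as a blocker of Wnt targets. In skin, Lef1 is known from the precortex of the hair follicle and from dermal papilla cells, and Tcf7l1 and Tcf7l2 from basal epidermis and follicle stem cells. Beta-catenin also has a second role at the membrane, where it links cadherins to alpha-catenin.

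The mouse's own Lef1 gene has several start sites, and from its internal promoter a short protein without the beta-catenin binding part is known to arise. RefSeq (GRCm38.p6) lists 4 start windows for Lef1, the last of them 45997 bases downstream of the first. The 250 bases before the first and before the last of these starts are shown, because the transgene is driven by the keratin 14 promoter and by neither of them. Capitals mark matches to the core of the Lef1/Tcf binding motif, CTTTGA, or its reverse complement TCAAAG.
Lef1 first start, chr3:131110047-131110296, + strand: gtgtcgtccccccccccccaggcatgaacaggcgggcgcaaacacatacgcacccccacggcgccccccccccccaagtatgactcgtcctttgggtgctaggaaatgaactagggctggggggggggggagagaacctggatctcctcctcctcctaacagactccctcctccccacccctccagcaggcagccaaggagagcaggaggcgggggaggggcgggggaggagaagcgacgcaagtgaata
Lef1 internal start, chr3:131156044-131156293, + strand: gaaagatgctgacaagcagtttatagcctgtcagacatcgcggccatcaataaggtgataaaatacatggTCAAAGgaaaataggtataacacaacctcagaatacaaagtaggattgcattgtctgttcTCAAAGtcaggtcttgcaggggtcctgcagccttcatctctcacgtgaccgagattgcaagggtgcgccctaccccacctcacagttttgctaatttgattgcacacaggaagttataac
The window at the internal start holds 2 matches, both in the reverse direction, at positions 71 and 131 from its 5′ end, and the window at the first start holds 0. Of the 11 windows that RefSeq gives for the 5 genes, this is the 1 with a match. Of 32851 mouse promoter windows of this length, 13.8% hold the core on either strand and 1.37% hold it at least 2 times. A match of these letters is a description and not a binding site.

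The median array intensity was 154.2 on K14ΔNLef1 replicate 1 and between 190.0 and 203.2 on the other 5 arrays. A gene value averages the log2 intensities of the gene's probe sets, groups are given as mean ± SD with n = 3 arrays, and differences are in log2 units, K14ΔNLef1 minus wild type. The median difference of all genes was -0.054, with 42.8% of genes higher. Of 11272 genes, 1.17% passed the limma test (Benjamini-Hochberg adjusted p at or under 0.05), with 0.328% higher and 0.843% lower. The keratinocyte keratins were bright on every array: Krt14, whose promoter drives the transgene, was at 12.81 to 13.06 and Krt5 at 11.98 to 12.48. The difference of Krt14 was 0.03 (95% interval -0.35 to 0.41, limma adjusted p = 0.964). Krt10 and Krt1, keratins of the suprabasal layers, differed by -0.60 and -0.74 (limma adjusted p = 0.335 and 0.447), and both by -0.38 without K14ΔNLef1 replicate 1. None of the measured markers of basal (8) or suprabasal keratinocytes (5), melanocytes (7) or endothelial cells (6) passed, and their median differences were -0.33, -0.53, 0.33 and 0.03. Without K14ΔNLef1 replicate 1 those of the keratinocyte lists were -0.20 (basal) and 0.06 (suprabasal), those of melanocytes 0.42 and of endothelial cells -0.01.

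Lef1 itself was the member that changed. Its value was 5.81, 7.02 and 6.26 on wild type replicates 1, 2 and 3, and 11.11, 11.13 and 11.24 on K14ΔNLef1 replicates 1, 2 and 3. The lowest transgenic array thus stood above the highest wild type array, and 18.7% of all genes had genotypes without overlap. The difference was 4.80 (SE 0.29, 95% interval 4.12 to 5.47, limma adjusted p = 3.96e-04). The wild type arrays spread over 1.21 and the transgenic arrays over 0.13.

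**Figure D1:**
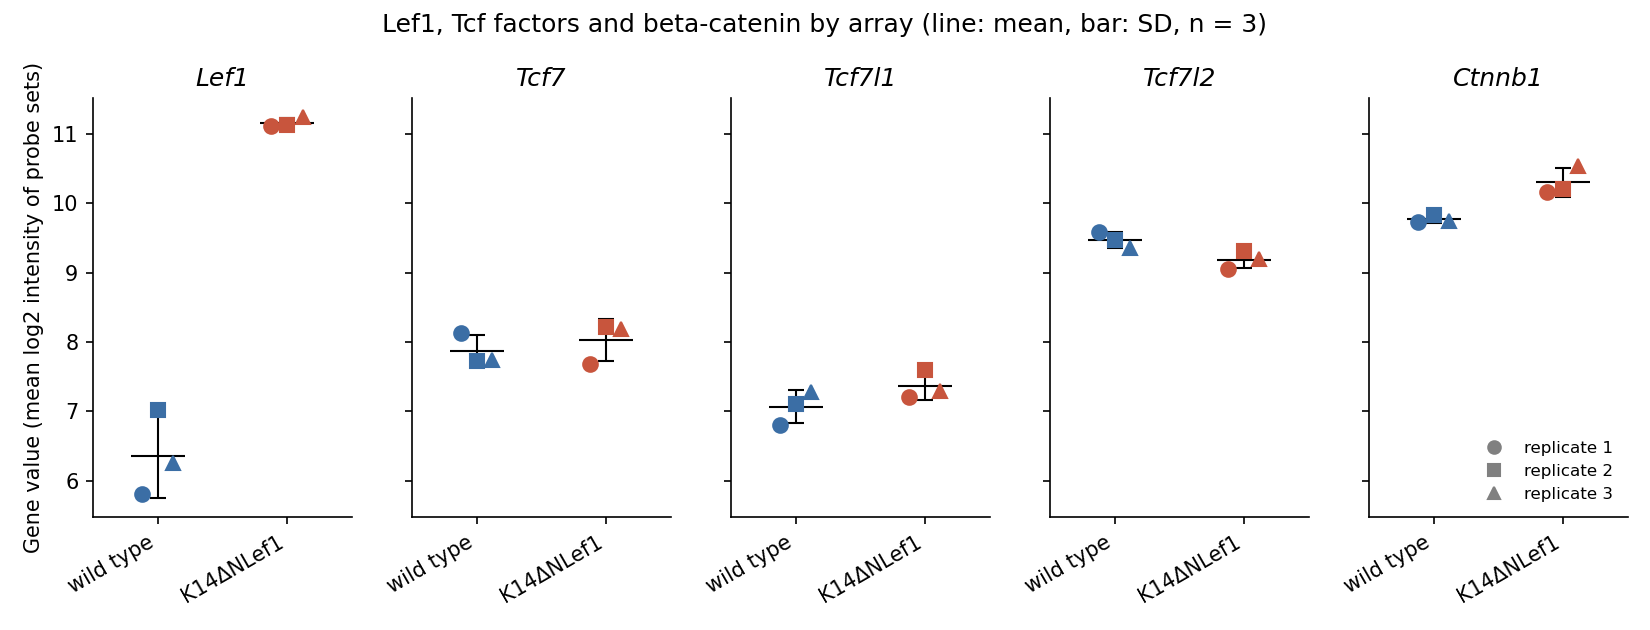
Gene value (log2 intensity averaged over probe sets) of the 5 genes on each of the 6 arrays, with wild type in blue, K14ΔNLef1 in red, the mean as a line and the SD as a bar (n = 3). Lef1 moves from 6.36 to 11.16, while the genotype means of the other 4 genes lie within 0.53 of each other.

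The rise was not shared by all Lef1 probe sets. Of the 13, 10 rose, by 4.65 to 7.54 (limma adjusted p of 0.00174 to 0.0353 over 109751 probe sets, of which 0.0692% rose and 0.19% passed in either direction). The 3 that did not pass were probe sets 5304528, 4593025 and 4936262. The diffSplice test of limma, which asks whether the probe sets of a gene differ by unequal amounts, gave an adjusted p of 8.83e-16 for Lef1, and 0.754% of 9812 genes passed it. That test pools the spread of a gene's probe sets, which was unequal in Lef1. In wild type, 6 of the 10 rising probe sets had a mean under 6.40, the level below which 25% of all probe sets lie in that genotype, and 0 of the other 3 did. Of those 3, probe set 4936262 lay just above that level, at 6.51. Over all 6 arrays it was among the lowest 25% of probe sets. The deposited table was used without detection calls, so for such dim probe sets the size of the difference depends on how low the arrays read. No fold is given for Lef1, and the rises are not ranked.

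Of the dim probe sets in wild type, 5403785 read 5.44, 6.24 and 5.71 in wild type and 13.42, 13.24 and 13.36 in K14ΔNLef1. The difference was 7.54 (SE 0.30, limma adjusted p = 0.00174). Of those above that level in wild type, probe set 4585358 had 8.69, 9.40 and 9.03 in wild type and 13.83, 13.47 and 13.77 in K14ΔNLef1. It rose by 4.65 (SE 0.29). Probe set 4366349, also above that level, rose by 4.91 (SE 0.30), and the dim probe set 5537741 by 7.03 (SE 0.54). In each of the 10 the lowest transgenic array exceeded the highest wild type array, by at least 4.07, and the genotypes had no overlap in 14.6% of all probe sets.

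The 3 other Lef1 probe sets did not separate the genotypes. Probe set 5304528 had 8.14, 8.38 and 7.85 in wild type against 7.43, 8.30 and 8.11 in K14ΔNLef1, a difference of -0.17 (95% interval -0.94 to 0.59). Probe set 4936262 had 6.40, 6.59 and 6.55 against 6.42, 5.84 and 6.21, a difference of -0.36 (-0.99 to 0.28). Probe set 4593025 had 6.90, 7.45 and 7.30 against 8.49, 7.16 and 7.16, a difference of 0.39 (-0.59 to 1.37), and its 1 high transgenic array was replicate 1. Their limma adjusted p was 0.796 to 0.918, and the upper ends of the intervals lie below the smallest difference of the 10 that rose. Positions of probe sets along the gene were not used here, so whether these 3 lie in the part that the transgene lacks was not analysed here. The intensities do not separate transgene RNA from RNA of the mouse's own Lef1 gene.

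**Figure D2:**
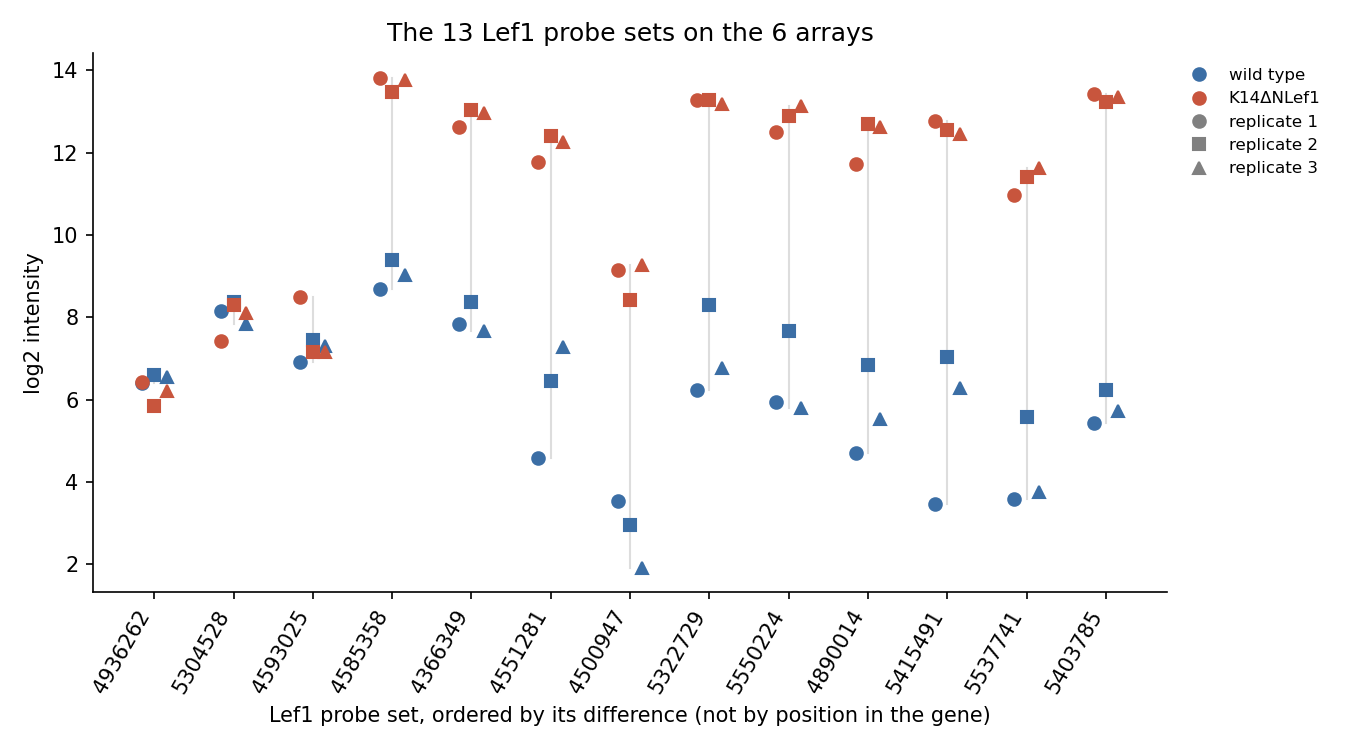
Log2 intensity of the 13 Lef1 probe sets on the 6 arrays, wild type in blue and K14ΔNLef1 in red, with a marker shape per replicate. The 3 sets on the left overlap between the genotypes and the other 10 are apart by at least 4.07.

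With the 10 rising probe sets alone, a choice made from their values and so given with no test, wild type averaged 6.08 ± 0.75 and K14ΔNLef1 12.34 ± 0.13 (SD, n = 3). The 3 others averaged 7.28 ± 0.17 in wild type and 7.24 ± 0.18 in K14ΔNLef1. The mean over all 13 therefore mixes a difference of 6.25 with one of -0.05. Within wild type, replicate 2 was the highest array on 11 of the 13 Lef1 probe sets and replicate 1 the lowest on 9. The SD of the 10 was larger in wild type (0.35 to 1.88) than in K14ΔNLef1 (0.05 to 0.55) for each probe set, and for each of the 3 others it was smaller in wild type.

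With 1 array fewer, fewer Lef1 probe sets passed in each of the 6 fits. Without wild type replicate 1, 2 or 3, 2, 7 and 1 of the 10 passed. Without K14ΔNLef1 replicate 1, 2 or 3, 8, 5 and 3 passed. The differences themselves stayed between 4.47 and 7.76 in these fits. The gene value of Lef1 passed in all 6 fits with 1 array left out, with differences of 4.52 to 5.13.

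Genes were set against Lef1 by the root mean square difference between 6 per-array deviations from the gene's own wild type mean. The deviations were not scaled, so this measure follows mainly the size of a gene's rise. Lef1 entered as the mean of its 13 probe sets. The genes closest to Lef1 were Fmo1 (0.93), Serpinb11 (1.14), Tagln3 (1.14), Pla2g4c (1.19) and Gsta4 (1.39). Fmo1, a flavin-containing monooxygenase, was 6.22, 6.06 and 6.33 in wild type and 9.53, 9.69 and 10.32 in K14ΔNLef1. Gsta4, a glutathione transferase, was 5.94, 6.42 and 6.05 against 9.79, 7.73 and 11.07, so its transgenic arrays spread where those of Lef1 did not, and it missed the threshold (limma adjusted p = 0.0731). Pla2g4c, a cytosolic phospholipase, was 5.11, 5.41 and 4.83 against 8.28, 8.22 and 8.33, as tight across the transgenic arrays as Lef1. Serpinb11 belongs to a family with closely similar copies, and its value is uncertain. The other members, none of which passed, were further from Lef1 by this measure. They were at 3.04 for Ctnnb1, 3.20 for Tcf7l1, 3.31 for Tcf7 and 3.61 for Tcf7l2.

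Tcf7, the family member best known from T cells, did not differ between the genotypes beyond the spread of its arrays. It was 8.14, 7.72 and 7.74 in wild type and 7.68, 8.22 and 8.18 in K14ΔNLef1. K14ΔNLef1 replicate 1 was the lowest of all 6 arrays and the other transgenic arrays the highest, with wild type replicate 1 just below them. These values are not rescaled between arrays. The median log2 of all probe sets was 7.27 on K14ΔNLef1 replicate 1 and 7.57 to 7.67 on the other arrays. The difference was 0.16 (SE 0.22, 95% interval -0.34 to 0.66, limma adjusted p = 0.826). With array medians made equal it was 0.27 (adjusted p = 0.650). It was 0.33 without K14ΔNLef1 replicate 1 (adjusted p = 0.466) and 0.07 without K14ΔNLef1 replicate 2. It was 0.30 without wild type replicate 1, 0.09 without wild type replicate 2, 0.10 without wild type replicate 3 and 0.09 without K14ΔNLef1 replicate 3. Of the 11 Tcf7 probe sets 8 were higher and none passed (differences of -0.17 to 0.64, smallest limma p unadjusted 0.131). The genotypes overlapped in all 11, where 14.6% of all probe sets have no overlap.

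In values not rescaled, the arrays with more Tcf7 also had higher T cell markers. The mean level of 17 measured T cell markers was 7.40, 6.89 and 7.05 in wild type against 7.04, 8.29 and 7.77 in K14ΔNLef1. Ranked from the highest, both Tcf7 and the markers run K14ΔNLef1 replicate 2, K14ΔNLef1 replicate 3, wild type replicate 1 and wild type replicate 3, and only the last 2 arrays change places. The ranks are of values not rescaled between arrays. K14ΔNLef1 replicate 1, among the last 2, had the lowest array median, 7.27 in log2 against 7.57 to 7.67 on the others. For Tcf7 this array was below wild type replicates 2 and 3 by less than its median was. The Tcf7 order therefore does not hold once array medians are made equal. Cd3g, a subunit of the T cell receptor complex, was 10.10, 9.44 and 9.44 in wild type and 9.46, 11.27 and 10.75 in K14ΔNLef1. Cd3e was 9.57, 9.11 and 9.19 against 9.37, 10.63 and 9.83. Cd3d was 8.50, 7.05 and 7.46 against 7.07, 9.72 and 8.55, and Thy1 was 9.18, 7.99 and 8.66 against 8.22, 10.15 and 9.47. Not all of the list shared this order: K14ΔNLef1 replicate 2 was the highest array for 14 of the 17, and it and replicate 3 were both above all wild type arrays for 12. Among the exceptions, chosen after their values were seen, Cd8a was 5.85, 6.12 and 6.37 against 6.39, 6.34 and 6.01, and Cd28 was 6.09, 6.11 and 6.03 against 5.79, 6.37 and 5.29. Of the 17, 15 were higher, 0 passed and the median difference was 0.66. Without K14ΔNLef1 replicate 1 the median was 1.19, and Cd2 and Gzmc passed, named here after their values were seen, where 2.15% of all genes passed. Of 11 measured Langerhans cell markers 11 were higher and 0 passed, with means of 6.94, 6.17 and 6.51 against 6.67, 7.84 and 7.32. The part of these cells in the Tcf7 values was not tested. In bulk RNA, more or fewer cells of a type and more or less RNA per cell cannot be told apart.

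**Figure D3:**
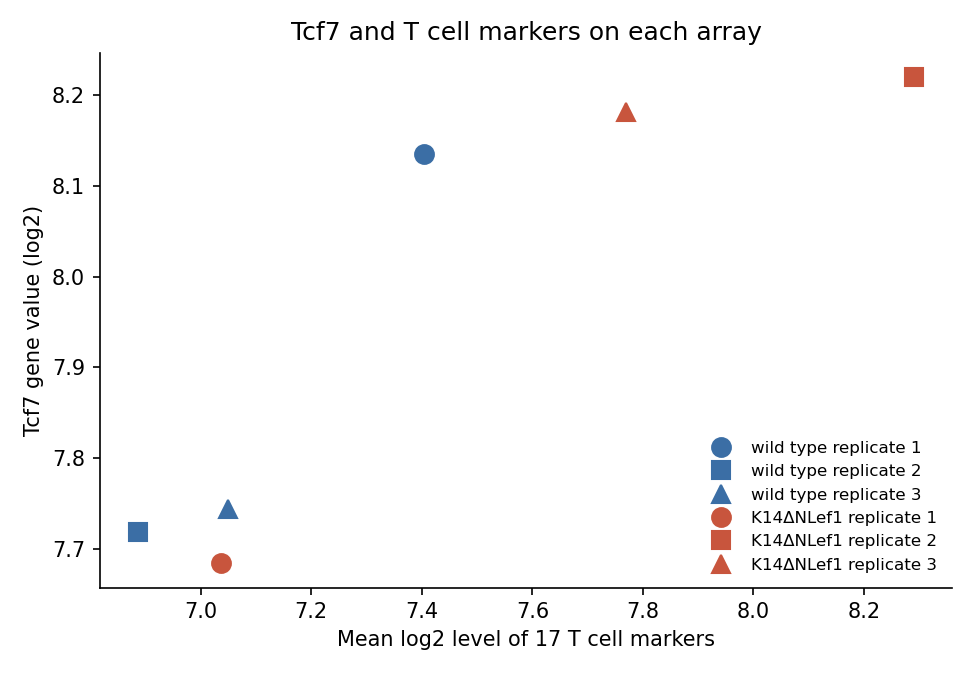
Tcf7 gene value against the mean log2 level of 17 T cell markers, 1 point per array, wild type in blue and K14ΔNLef1 in red. K14ΔNLef1 replicates 2 and 3 are the highest on both axes. Wild type replicate 1 is close to them for Tcf7, and for the markers it lies between them and the other 3 arrays. Values are not rescaled between arrays.

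Single Tcf7 probe sets followed that pattern unequally. Probe set 5458125 was 9.05, 7.01 and 8.67 in wild type and 6.16, 9.62 and 9.02 in K14ΔNLef1, a range over the arrays much wider than that of the gene value. Probe set 5481940, in contrast, was 8.76, 8.74 and 8.32 against 9.46, 8.18 and 8.86, with K14ΔNLef1 replicate 1 the highest. The diffSplice test did not call unequal change between the genotypes for Tcf7, Tcf7l1, Tcf7l2 or Ctnnb1 (smallest unadjusted p 0.552).

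Tcf7l1, which in epidermis is known mainly as a repressor in stem cells and embryonic skin, was 6.81, 7.11 and 7.28 in wild type and 7.21, 7.59 and 7.29 in K14ΔNLef1. The genotypes overlapped. The difference was 0.30 (SE 0.20, 95% interval -0.16 to 0.76, limma adjusted p = 0.627), and with the median of its probe sets in place of the mean it was 0.05. Without wild type replicate 1 it was 0.17 and without K14ΔNLef1 replicate 2 it was 0.19, while array weights gave 0.49 (adjusted p = 0.0678). Among 12 probe sets 9 were higher and none passed. The most separate was probe set 4535658, at 8.51, 8.76 and 8.75 in wild type and 9.92, 9.45 and 9.51 in K14ΔNLef1, with a difference of 0.95 (95% interval 0.32 to 1.58, adjusted p = 0.352).

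Tcf7l2, a Wnt effector of many epithelia, was lower on each transgenic array in values not rescaled between arrays. It was 9.59, 9.47 and 9.36 in wild type and 9.05, 9.31 and 9.20 in K14ΔNLef1. The closest arrays, wild type replicate 3 and K14ΔNLef1 replicate 2, were 9.36 and 9.31. That gap is smaller than the one between their median log2 values of all probe sets, 7.64 and 7.57. The separation of the genotypes is therefore lost when array medians are made equal. The difference of -0.28 (SE 0.17, 95% interval -0.68 to 0.11) did not pass (limma adjusted p = 0.588). It was -0.49 over the brighter probe sets, -0.18 with array medians made equal and -0.11 after quantile normalization. Of 14 probe sets 11 were lower, 3 of them with no overlap, where 14.6% of all probe sets have none. The most negative, probe set 5197931, was 10.38, 10.07 and 9.79 in wild type and 9.20, 9.74 and 8.59 in K14ΔNLef1, a difference of -0.91 (95% interval -1.75 to -0.06, adjusted p = 0.578). Probe set 5137550 went the other way, at 7.46, 7.45 and 7.36 against 8.62, 7.60 and 7.73.

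Ctnnb1, the gene of beta-catenin, was higher on each transgenic array but did not pass the test over all genes. It was 9.73, 9.84 and 9.75 in wild type and 10.15, 10.21 and 10.54 in K14ΔNLef1. The wild type arrays lay within 0.11 of each other, and the lowest transgenic array was above all of them. The difference was 0.53 (SE 0.18, 95% interval 0.12 to 0.94), or 1.44-fold, with a limma p of 0.0179 and an adjusted p of 0.288. All 17 probe sets were higher, by 0.22 to 0.84, and in 12 of them the genotypes did not overlap, where this holds for 14.6% of all probe sets. The probe sets share the 6 samples and are not separate evidence, and none passed alone.

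The Ctnnb1 probe sets moved by similar amounts. Probe set 4627206 had the largest difference, 0.84, with 10.33, 10.55 and 10.42 in wild type and 11.40, 11.23 and 11.19 in K14ΔNLef1. Probe set 4757991 had 10.79, 10.68 and 10.81 against 11.29, 11.29 and 11.38, a difference of 0.56. Probe set 5591510 had 12.06, 11.95 and 12.13 against 12.12, 12.39 and 12.46, where the genotypes overlapped. The gene's difference was 0.41 without K14ΔNLef1 replicate 3 and 0.60 without K14ΔNLef1 replicate 1, and 0.64 and 0.70 with the 2 rescalings of the arrays, with adjusted p of 0.105 or more in these fits. With array weights it was 0.47 and passed (adjusted p = 0.0390), in a fit that passed 11.5% of all genes.

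**Figure D4:**
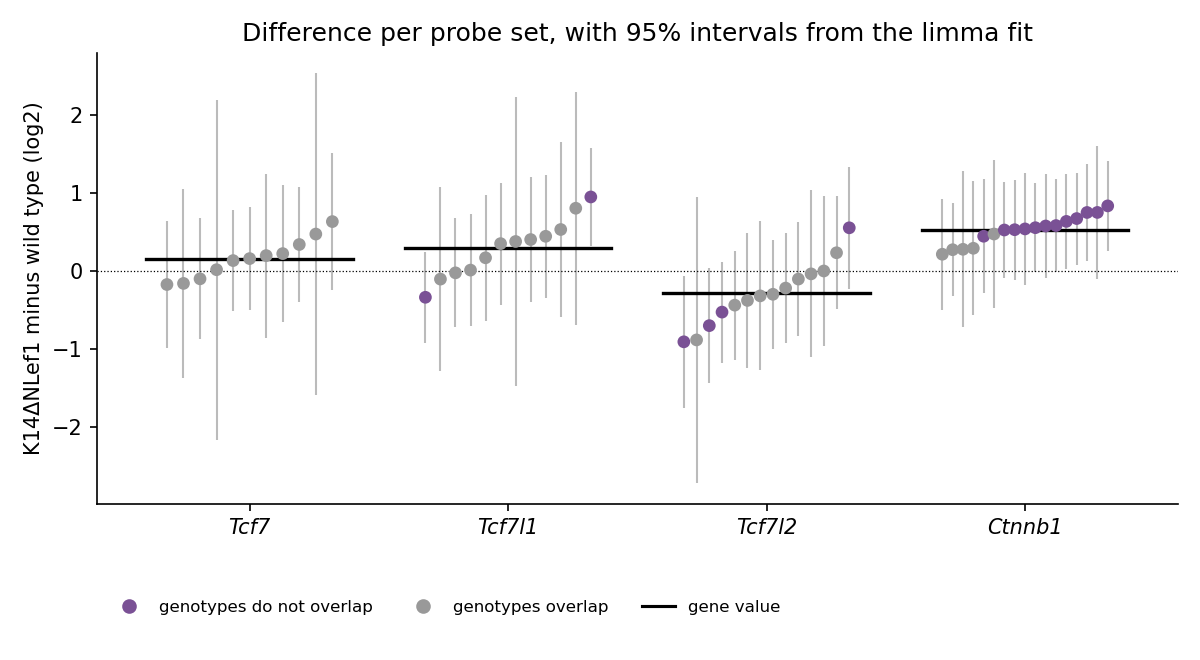
Difference (K14ΔNLef1 minus wild type, log2) of each probe set of Tcf7, Tcf7l1, Tcf7l2 and Ctnnb1, sorted within the gene, with the 95% interval of the limma fit; purple points have no overlap between the genotypes and the black line is the gene value. All 17 Ctnnb1 points lie above 0, while those of the 3 Tcf genes lie on both sides.

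The partners of beta-catenin at the membrane did not share one direction. Of 14 adhesion partners none passed, 10 were lower and 3 had no overlap, where 18.7% of all genes have none. The median was -0.25 against -0.054 for all genes, and it was -0.13 without K14ΔNLef1 replicate 1 and -0.08 after quantile normalization. Cdh1, the E-cadherin of all epidermal layers, was 10.74, 10.75 and 10.70 in wild type and 10.03, 10.41 and 10.41 in K14ΔNLef1, a difference of -0.44 (limma adjusted p = 0.387). Cdh3, the P-cadherin of basal and hair matrix cells, was 8.22, 8.10 and 8.32 against 8.62, 9.17 and 9.32, a difference of 0.82 (adjusted p = 0.170). Every transgenic array was thus lower for Cdh1 and higher for Cdh3. Cdh3 passed without K14ΔNLef1 replicate 1, at 1.03 (adjusted p = 0.0230), where 2.15% of all genes passed. It also passed with array medians made equal (adjusted p = 0.0358), where 236 of 11272 genes passed. Jup, the gamma-catenin that can take the place of beta-catenin at junctions, was 10.03, 10.26 and 10.19 against 9.13, 9.45 and 9.93. Its difference of -0.65 (adjusted p = 0.308) was opposite in sign to that of Ctnnb1. Jup passed with array weights (adjusted p = 0.0199), in the fit that passed 11.5% of all genes. Ctnna1, the alpha-catenin that binds beta-catenin, was 10.14, 10.30 and 10.11 against 9.44, 9.83 and 10.27, so K14ΔNLef1 replicate 3 lay inside the wild type range. Its difference was -0.34, and -0.13 without K14ΔNLef1 replicate 1.

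In the destruction complex and Dishevelled list none of 13 measured genes passed, and 10 were lower. Its median was -0.06, and it was 0.05 with the same array medians and 0.11 after quantile normalization. Axin2, a scaffold of the complex and itself a Wnt target, was 9.01, 9.13 and 9.04 in wild type and 8.13, 8.55 and 8.51 in K14ΔNLef1, with no overlap. Its difference of -0.67 (SE 0.18, 95% interval -1.09 to -0.24) had a limma adjusted p of 0.185. With array weights, where 11.5% of all genes passed, the adjusted p was 0.0212. Ppp2r1a, a phosphatase subunit, had a difference of -0.54 (adjusted p = 0.479), and -0.35 without K14ΔNLef1 replicate 1. Apc was 8.03, 8.22 and 8.08 against 7.08, 7.74 and 8.05, and Gsk3b, the kinase that marks beta-catenin, was 9.91, 9.76 and 9.68 against 8.95, 9.56 and 9.78. In both, K14ΔNLef1 replicate 1 was the lowest array and replicate 3 came within or beside the wild type range. The mean deviation of this list from wild type was -0.45 on that array and 0.04 on replicate 3.

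Co-activators of the Lef1/Tcf and beta-catenin complex were mostly lower too, with no call. None of 12 measured passed and 10 were lower, where 6443 of 11272 genes were lower. Of the 12, 0 had genotypes without overlap, where 18.7% of all genes have none. The median of -0.25 was -0.04 without K14ΔNLef1 replicate 1. The mean deviation of the 12 from wild type was -0.59 on that array. The 2 with the smallest p were Ep300, a histone acetyltransferase, with -0.36 (limma adjusted p = 0.609), and Parp1 with -0.32 (adjusted p = 0.615). Without that array they differed by -0.13 and -0.16. Bcl9 and Bcl9l, which tether Pygo proteins to beta-catenin, differed by -0.21 and -0.14, and by -0.02 and -0.06 without it. Pygo2 differed by -0.28, and by -0.56 with array weights.

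Among co-repressors and inhibitors none of 18 measured passed, with 8 higher, 10 lower and a median of -0.03 that became 0.08 with the same array medians. None of the 5 Groucho-type Tle genes passed. Tle4 was 8.30, 7.99 and 8.01 in wild type and 6.75, 7.65 and 7.70 in K14ΔNLef1, a difference of -0.73 (limma adjusted p = 0.345), and it was -0.43 without K14ΔNLef1 replicate 1. Tle3 differed by -0.36, and Tle1, at 6.62, 6.73 and 6.92 against 7.08, 6.93 and 7.30, by 0.35. Tle2 and Tle5, the short family member that lacks the repression domain, differed by 0.08 and 0.06, and the sign of both turned with array weights (-0.08 and -0.04). Kctd1 had the smallest p, with 9.94, 9.65 and 9.93 against 8.79, 8.80 and 9.50 (difference -0.81, adjusted p = 0.210). With array weights, where 11.5% of all genes passed, its adjusted p was 0.00795. Ctnnbip1, which blocks the contact of beta-catenin with Tcf proteins, differed by -0.28 (adjusted p = 0.680), and by -0.09 without K14ΔNLef1 replicate 1.

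**Figure D5:**
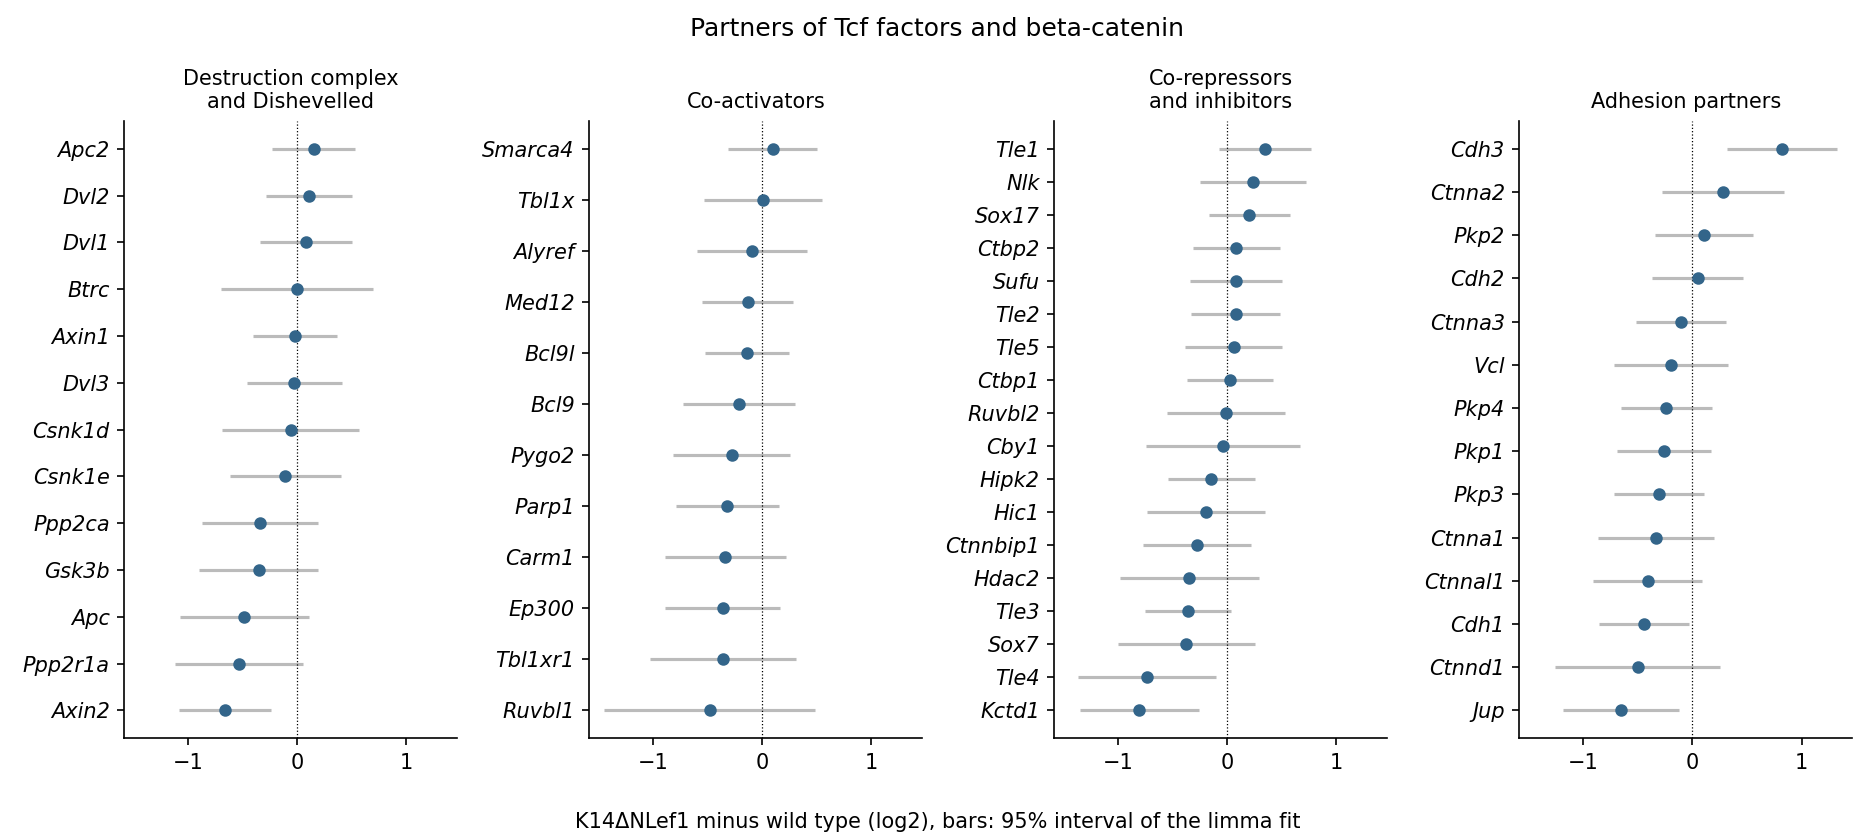
Difference (K14ΔNLef1 minus wild type, log2) of the measured genes of 4 partner lists, 13, 12, 18 and 14 genes, with the 95% interval of the limma fit. Points lie from -0.81 (Kctd1) to 0.82 (Cdh3), and none of these genes passed after adjustment over all genes.

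Among genes that Wnt signalling is known to turn on, feedback inhibitors included, 24 were measured. Of these 1 fell, where 0.843% of all genes fell, and 23 did not pass. The median difference of 0.05 was -0.06 without K14ΔNLef1 replicate 1. Sostdc1 fell. It encodes a secreted antagonist of BMP and Wnt signals and was 10.29, 9.92 and 10.25 in wild type and 7.91, 8.79 and 8.26 in K14ΔNLef1 (difference -1.83, limma adjusted p = 0.0172), and it passed in 2 of 6 fits with 1 array left out. Another pair of genes was chosen after their values were seen. Ccnd1, a cell cycle gene often used as a Wnt target, was 9.15, 9.59 and 9.03 against 8.46, 8.10 and 8.77 (limma adjusted p = 0.213), with every transgenic array lower. With array weights, where 11.5% of all genes passed, its adjusted p was 0.00870. Wif1, a secreted Wnt inhibitor, was 5.79, 5.49 and 5.93 against 6.69, 6.52 and 7.50 (limma adjusted p = 0.125). With array medians made equal, where 236 of 11272 genes passed, the adjusted p of Wif1 was 0.0318. Wif1 passed in 0 of 6 fits with 1 array left out. Among markers of cells in which Lef1 is known, none of 9 measured hair matrix and shaft markers and none of 12 fibroblast and dermal papilla markers passed, with median differences of -0.12 and 0.14.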

How the data were processed

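Per the labels, RNA of 3 wild type and 3 K14ΔNLef1 samples was amplified as cDNA and biotin-labelled for mouse exon arrays. The deposited table gives a linear intensity per probe set. The submitters' processing notes name Affymetrix Power Tools, RMA and mm9; tool versions are not given in the sources used here. Intensities were turned to log2. Of 114330 probe sets, 109751 had 1 symbol, 834 several and 3745 none listed. Only those with 1 were used, and 1238 symbols were updated through RefSeq synonyms. The test for genes and probe sets was that of limma 3.58.1 under R 4.3.3 (lmFit, eBayes, two-sided, threshold 0.05), with no filter, over the whole table. Unequal change was tested with diffSplice in genes with at least 3 probe sets. On simulated data the limma gene test passed 50.7% of changes of 1 log2 unit, 98.5% of changes of 2 and 0.0723% of unchanged genes. There diffSplice passed 99.5% of genes with a change of 3 in part of their probe sets. It also passed 61 unchanged genes (0.635%), while it passed 74 genes in the real data. The simulated noise was independent between genes, probe sets and arrays, with no dim array such as K14ΔNLef1 replicate 1. The simulated shares may therefore not hold for these arrays. Named are the 5 members, their direct partners, in each pathway list the members that passed or else the 2 with the smallest p, the 5 genes most like Lef1, and Krt14, Krt5, Krt1, Krt10, Cd3e, Cd3g, Cd3d and Thy1 as checks of the cells; others are said to be chosen after their values were seen. Members and lists were chosen with earlier results of these data known. The number of arrays limits the precision. The p-values set a difference against the spread between these samples, which limma moderates with the spread of all genes or probe sets tested. Alternatives covered probe set summaries, scaling, a dim filter, eBayes settings, array weights, blocks and arrays left out. The labels name no pairs, so the replicate numbers were not used as pairs. Same-numbered samples had correlations of deviations of -0.163, -0.173 and 0.0363. These cannot decide whether samples are paired, because deviations from the mean of 3 arrays depend on each other. Data were read with Python 3.11.15 and pandas 2.3.3 and drawn with matplotlib 3.10.9.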

Additional observations from a re-analysis of the deposited data

How the results depend on the processing

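The direction of all 5 gene differences, and the side of the threshold of all but Ctnnb1, were the same under each of the 15 alternatives run. Lef1 ranged from 4.52 to 6.10, with limma adjusted p of 1.47e-05 to 0.00463. Ctnnb1 passed with array weights, with a difference of 0.47. The number of genes that passed was 132, and it was 236 with the same array medians, 201 after quantile normalization, 1294 with array weights and 27 to 242 with 1 array left out. With the replicate number as a block, a number that the labels do not call a pairing, 74 genes and 0 of the Lef1 probe sets passed. The gene value of Lef1 passed in that fit, with a difference of 4.80. With samples of adjacent numbers as blocks, 90 genes and 0 Lef1 probe sets passed. In both block fits the 10 Lef1 probe sets kept differences of 4.65 to 7.54. Their limma adjusted p was 0.0865 to 0.110 with replicate numbers and 0.0984 to 0.143 with adjacent numbers. The share of all probe sets that passed is not given for the alternatives. With 1 array left out, 1 to 8 Lef1 probe sets passed. Unequal change along Lef1 passed in all 10 alternatives. None of the probe sets of Tcf7, Tcf7l1, Tcf7l2 and Ctnnb1 passed in any of the 13 alternatives run per probe set, at an unadjusted limma p under 0.05 in 0, 1, 1 and 4 of them with all arrays. Both rescalings moved the median of all genes from -0.054 to 0.054 or 0.056.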
